A study of Mus musculus with 8 samples.

Results

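The insulin-like growth factor (IGF) axis was described through 10 genes of 54532 in the count files. They were the ligand genes *Igf1* and *Igf2*, the receptor genes *Igf1r* and *Igf2r*, and the binding protein genes *Igfbp2*, *Igfbp3*, *Igfbp4*, *Igfbp5*, *Igfbp6* and *Igfbp7*. They were found by matching the Ensembl identifiers to mouse symbols, and all 10 were among the 22544 genes that passed the filter on low counts. The members were chosen by their levels and log2 fold changes between TGF-β1 and vehicle in these same cultures, which were already known. Those differences, and the calls of members below, are therefore a description and support nothing. RNA was sequenced from 8 primary cultures of pericytes, the mural cells of capillaries, from the brain of mice of WT genotype. Of these, 4 received TGF-β1 at 5 μg/mL and 4 received vehicle, and all were collected at 48 h. The cells had been released from brain tissue with papain and expanded over several passages, first in endothelial growth medium and then in pericyte medium with growth factors and serum, which both groups shared. The study's methods speak of independent isolates that received both treatments, but the sample labels, which run from 1 to 4 for vehicle and on from 5 to 8 for TGF-β1, tie no culture to another.

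The IGF ligands are secreted growth factors that act through the tyrosine kinase encoded by *Igf1r*, which signals to the PI3K and MAPK pathways, while the product of *Igf2r* takes IGF2 and mannose 6-phosphate-tagged enzymes to lysosomes. In the extracellular space most IGF is held by binding proteins, which keep it from the receptor or present it to the cell until proteases cut them. The proteins made from *Igfbp2*, *Igfbp3*, *Igfbp4*, *Igfbp5* and *Igfbp6* bind IGFs tightly, whereas that of *Igfbp7* binds them weakly and is known as a matrix protein of blood vessels. Mesenchymal and mural cells are known sources of several of them, and TGF-β is a known regulator of their genes in fibroblasts.

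The libraries held 45255235 to 47651397 counts with vehicle and 45988208 to 46827358 with TGF-β1. At this depth 3 counts were worth 0.0631 to 0.0658 CPM (counts scaled to a common library size), the unit used below, with TMM factors that correct for composition. Of 7 TGF-β response genes used to check the labels, 6 rose and 1 fell, and *Cthrc1*, a secreted collagen triple helix repeat protein gene, went from 31.3 ± 1.57 to 65.1 ± 2.19 CPM (SD, n = 4). Of 12 pericyte markers, 6 stayed under 1 CPM in every culture, namely *Kcnj8*, *Abcc9*, *Des*, *Vtn*, *Higd1b* and *Atp13a5*. *Pdgfrb*, at 202 ± 5.43 CPM with vehicle, *Cspg4*, at 82.9 ± 2.50 CPM, and *Notch3*, at 88.5 ± 1.86 CPM, were present. Of the 9 pericyte markers tested, 3 were called higher and 3 lower. The sum over the list ran from 420 to 440 CPM with vehicle and from 578 to 601 CPM with TGF-β1. It was carried by *Pdgfrb* and *Cspg4*, which rose to 291 and 169 CPM, and *Mcam* rose from 5.25 to 10.1 CPM. *Rgs5* fell from 8.62 to 2.13 CPM, *Anpep* from 40.5 to 30.1 CPM and *Atp13a5* from 0.723 to 0.299 CPM. The 8 fibroblast markers summed to between 4486 and 4711 CPM with vehicle and between 6559 and 6836 CPM with TGF-β1, carried by the 3 collagen genes, which rose. *Dcn* fell from 52.1 to 46.7 CPM and *Dpt* from 0.490 to 0.277 CPM, *Pdgfra* was not called, at 62.5 and 63.01 CPM, and *Lum* and *Slc6a13* were near 0. *Dpt* had 9 to 28 counts per library, and its call was at the edge of the threshold (adjusted p = 0.0490, edgeR). Calls of markers were not recomputed under other settings. The 8 endothelial markers summed to 471 to 484 CPM and 472 to 498 CPM, with *Cdh5* at 375 ± 6.23 CPM in vehicle cultures. *Flt1* rose from 81.7 to 99.2 CPM and *Tek* fell from 2.71 to 1.99 CPM. *Kdr*, at 17.9 and 18.6 CPM, and *Pecam1*, at 1.11 CPM in both groups, were not called. *Cldn5*, *Emcn* and *Erg* were near 0. The 5 astrocyte markers summed to 50.1 to 57.2 CPM and 39.2 to 44.2 CPM, with *Slc1a2* lower (38.5 to 16.3 CPM) and *Slc1a3* (9.74 to 15.2 CPM) and *Aldh1l1* (5.16 to 8.79 CPM) higher. *Aqp4* had 0 counts in all vehicle cultures and at most 6 in a TGF-β1 culture. The 7 macrophage and microglia markers summed to 3.16 to 4.10 CPM and 4.62 to 5.56 CPM. Of the 6 tested, only *Csf1r* was called, higher, from 1.504 to 2.504 CPM, and it made up most of the difference in the sum. The other 5 were not called. The part of these markers in the differences below was not tested. In RNA from whole cultures, fewer cells of a type and less RNA per cell cannot be told apart.

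The larger differences were at the binding proteins and at *Igf1*. With an adjusted p under 0.05 as the rule for a call (edgeR quasi-likelihood test, Benjamini-Hochberg adjustment over all genes tested), 5 of the 10 genes were called higher with TGF-β1, 3 lower, and 2 were not called. In the same comparison 41.3% of all genes tested were called, 20.9% higher and 20.3% lower, and nothing is read from the members' count, since these values chose them. The 4 TGF-β1 cultures lay wholly above or wholly below the 4 vehicle cultures for 9 of the 10 genes, as they did for 37.9% of all genes tested. The median log2 fold change of the members was 0.09 against -0.01 over all genes tested, and their median absolute log2 fold change was 1.149 against 0.18. A log2 fold change of at least 1 in size, together with a call, was reached by 5 members, *Igf1*, *Igfbp2*, *Igfbp3*, *Igfbp5* and *Igfbp7*, and by 5.41% of all genes tested.

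**Figure D1:**
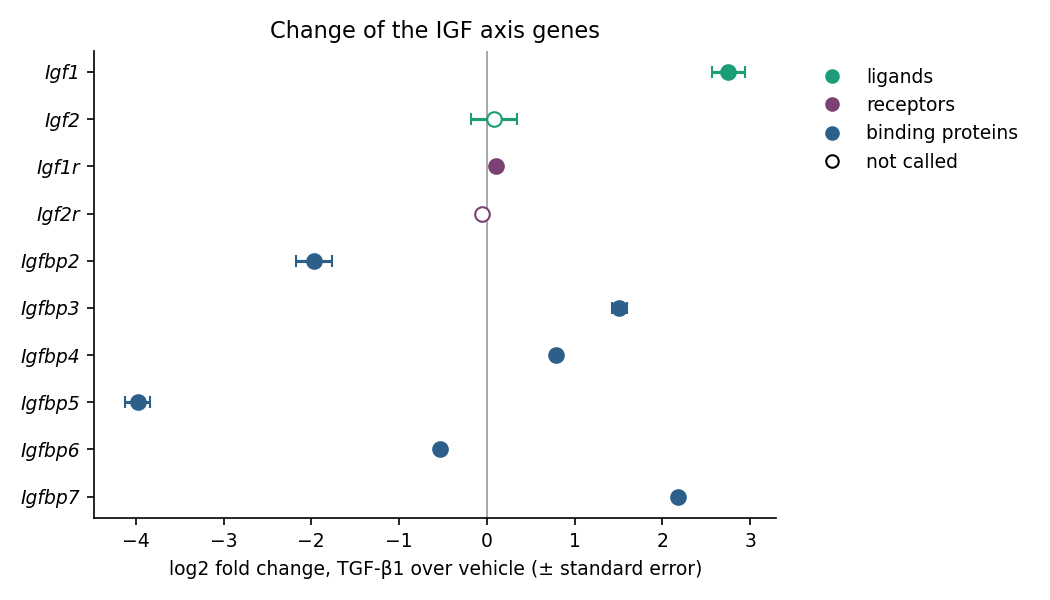
Log2 fold change of each IGF axis gene, TGF-β1 over vehicle, on the horizontal axis, with bars of 1 standard error from the edgeR model and open circles for the genes that were not called. *Igf1* at 2.75 and *Igfbp7* at 2.18 lie farthest to the right, *Igfbp5* at -3.98 farthest to the left, and both receptors lie next to 0.

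Of the ligands, *Igf1* rose from a very low level and *Igf2* stayed low in both groups. *Igf1* (chr10:87858265-87937042, GRCm38, plus strand) had 0.629, 0.395, 0.463 and 0.390 CPM in vehicle cultures 1 to 4, and 2.64, 3.05, 3.01 and 4.00 CPM in TGF-β1 cultures 5 to 8. These were 18 to 29 counts per vehicle library and 121 to 188 per TGF-β1 library. Every TGF-β1 culture was above every vehicle culture, with culture 8 the highest. The log2 fold change was 2.75 (standard error 0.19), or 6.74-fold on the linear scale. Among all 22544 genes tested, this was rank 30 by size of rise.

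*Igf2* (chr7:142650766-142666816, minus strand), an imprinted fetal growth factor gene, had 0.673, 0.636, 0.737 and 0.520 CPM in vehicle cultures 1 to 4. In TGF-β1 cultures 5 to 8 it had 0.546, 0.958, 0.567 and 0.638 CPM. The groups overlapped, and culture 6 was the highest of all 8. With 24 to 44 counts per library, the log2 fold change of 0.08 had a standard error of 0.26, over 3 times its size, and it was not called. Its sign turned when vehicle replicate 4 was left out (-0.01) or TGF-β1 replicate 6 (-0.14). Other annotated genes cover 64.5% of the exon bases of *Igf2*, and *Gm49394* on the same strand alone covers 62.8% of them. *Gm49394* had 0 counts in all 8 libraries, and if reads shared by genes were left out of the counting, the level of *Igf2* is understated.

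The receptors were abundant, and their levels differed by a few percent between the groups. *Igf1r* (chr7:67952827-68233668, plus strand) had 269.1, 265.5, 269.1 and 262.6 CPM with vehicle and 283.6, 284.3, 294.3 and 280.03 CPM with TGF-β1. The groups did not overlap, and the gene was called higher by 7.12%, a log2 fold change of 0.10 (standard error 0.02). *Igf2r* (chr17:12682406-12769664, minus strand) had 449.0, 450.8, 442.2 and 452.7 CPM with vehicle and 427.0, 438.02, 439.4 and 427.9 CPM with TGF-β1. Its groups did not overlap either, yet the log2 fold change of -0.051 (standard error 0.02), a difference of -3.47%, was not called. DESeq2, scaling by library totals or upper quartiles, or leaving out TGF-β1 replicate 7 brought it to a call, at log2 fold changes of -0.045, -0.062, -0.057 and -0.062. The insulin receptor gene *Insr*, whose product pairs with that of *Igf1r* in hybrid receptors, is no member and fell from 100.2 ± 1.01 to 92.3 ± 1.40 CPM (SD, n = 4), a log2 fold change of -0.12 (adjusted p = 0.000311, edgeR, lower in 4 of 4 cultures).

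**Figure D2:**
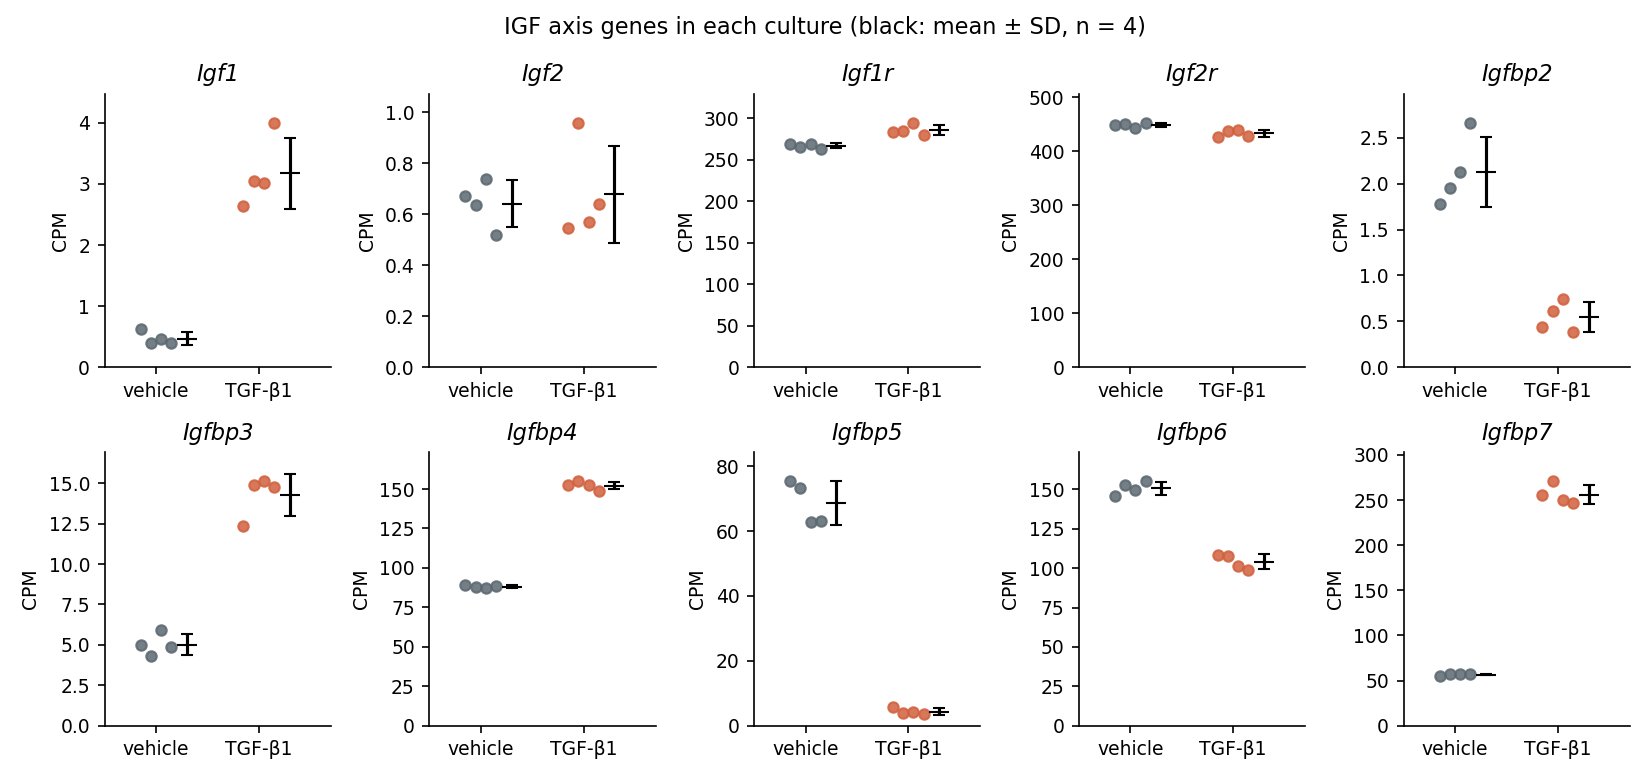
CPM of each IGF axis gene in every culture, with vehicle cultures 1 to 4 in grey and TGF-β1 cultures 5 to 8 in orange, each panel on its own linear axis from 0, and the mean ± SD in black (n = 4). The groups are apart in every panel except that of *Igf2*, where 0.520 to 0.737 CPM with vehicle overlaps 0.546 to 0.958 CPM with TGF-β1.

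Among the binding proteins, 3 genes rose with TGF-β1 (*Igfbp3*, *Igfbp4* and *Igfbp7*) and 3 fell (*Igfbp2*, *Igfbp5* and *Igfbp6*). *Igfbp1* was at 0 counts in all 8 libraries, which allows up to 3 counts, or 0.0658 CPM, in the library where this is worth most. The stretches just upstream of the start sites are shown for the 4 binding protein genes whose level changed by at least 1 on the log2 scale. They were taken from RefSeq on GRCm38.p6, where all 10 members had an entry, and run 5′ to 3′ on the strand of the gene. Capitals mark GGCGC or its reverse complement GCGCC, a GC-rich element that SMAD proteins, the transcription factors downstream of TGF-β receptors, are known to bind. The stretches ended at the start site, and for *Igfbp5* at the first annotated exon base.
Igfbp5, chr1:72874885-72875115, minus strand: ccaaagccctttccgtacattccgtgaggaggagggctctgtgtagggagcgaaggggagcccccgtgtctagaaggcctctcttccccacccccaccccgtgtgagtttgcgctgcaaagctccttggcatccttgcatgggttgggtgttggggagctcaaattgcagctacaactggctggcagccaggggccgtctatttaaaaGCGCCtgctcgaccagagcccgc
Igfbp2, chr1:72824230-72824479, plus strand: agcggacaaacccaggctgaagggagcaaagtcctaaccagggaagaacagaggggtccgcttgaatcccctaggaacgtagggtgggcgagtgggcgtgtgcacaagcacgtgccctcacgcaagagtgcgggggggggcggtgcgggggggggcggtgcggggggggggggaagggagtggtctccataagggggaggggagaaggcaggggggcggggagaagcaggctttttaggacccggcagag
Igfbp3, chr11:7213924-7214173, minus strand: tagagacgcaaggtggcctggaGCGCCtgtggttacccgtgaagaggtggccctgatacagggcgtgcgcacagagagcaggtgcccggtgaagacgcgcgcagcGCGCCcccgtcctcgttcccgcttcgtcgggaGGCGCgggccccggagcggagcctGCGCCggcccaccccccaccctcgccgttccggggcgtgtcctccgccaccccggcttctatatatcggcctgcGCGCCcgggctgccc
Igfbp7, chr5:77408046-77408295, minus strand: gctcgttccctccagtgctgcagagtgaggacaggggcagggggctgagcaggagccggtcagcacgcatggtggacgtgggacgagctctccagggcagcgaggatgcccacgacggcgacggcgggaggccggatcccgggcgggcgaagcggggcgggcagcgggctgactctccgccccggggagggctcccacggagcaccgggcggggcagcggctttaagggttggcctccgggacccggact

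The 4 stretches were searched on both strands, with overlapping matches counted separately, and the share of all 32851 windows of 250 bases in the RefSeq table that hold each motif is given beside it. The GC-type element, present in 32.0% of windows, was found 5 times in the *Igfbp3* window, once in that of *Igfbp5*, and not in those of *Igfbp2* and *Igfbp7*. RefSeq gives *Igfbp2* another start site, whose window (chr1:72825137-72825386, 65 of its bases in an exon) was not printed and held 1 SMAD box and 1 AP-1 site. None of the 4 windows shown held the SMAD box CAGAC (42.2% of windows), the AP-1 site TGACTCA (4.46%), the FOXO site GTAAACA (3.17%) or TATAAA (12.4%). The G and C content was 58.8% for *Igfbp5*, 67.2% for *Igfbp2*, 73.2% for *Igfbp3* and 74.0% for *Igfbp7*, against a median of 52.4% over all windows. These matches describe the letters of the windows and say nothing of binding in these cells.

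*Igfbp5* (chr1:72857932-72874884, minus strand), whose product binds extracellular matrix as well as IGFs, fell most. It had 75.3, 73.3, 62.7 and 63.0 CPM in vehicle cultures 1 to 4 and 5.76, 3.85, 4.08 and 3.70 CPM in TGF-β1 cultures 5 to 8. The lowest vehicle culture stood far above the highest TGF-β1 culture, culture 5. The log2 fold change was -3.98 (standard error 0.14), a level 15.8-fold lower, and this was rank 2 by size of fall among all 22544 genes tested. The libraries held 2906 to 3471 counts of the gene with vehicle and 174 to 264 with TGF-β1.

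*Igfbp2* (chr1:72824503-72852474, plus strand), whose product is a major IGF carrier of the brain and the cerebrospinal fluid, was scarce and fell further. It had 1.78, 1.95, 2.13 and 2.66 CPM with vehicle, and 0.436, 0.610, 0.742 and 0.383 CPM with TGF-β1. All 4 vehicle cultures were above all TGF-β1 cultures, which held 18 to 34 counts each. The log2 fold change was -1.97 (standard error 0.21), or 3.92-fold lower.

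*Igfbp6* (chr15:102144362-102149511, plus strand), whose product prefers IGF2 over IGF1, fell moderately. It had 145.7, 152.8, 149.7 and 155.2 CPM with vehicle and 108.3, 107.9, 101.2 and 98.7 CPM with TGF-β1. The groups were well apart. Its level was 1.45-fold lower, a log2 fold change of -0.54 (standard error 0.03).

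*Igfbp7* (chr5:77349240-77408041, minus strand) showed the largest rise of the binding proteins. It had 55.2, 56.9, 57.2 and 57.1 CPM in vehicle cultures 1 to 4 and 256.1, 270.7, 250.6 and 246.8 CPM in TGF-β1 cultures 5 to 8. Each TGF-β1 culture was over 4 times the highest vehicle culture. The log2 fold change was 2.18 (standard error 0.03), or 4.52-fold, which was rank 79 by size of rise among all 22544 genes tested. On the opposite strand *Polr2b*, an RNA polymerase II subunit gene with 3945 to 4567 counts per library, covers 7.03% of its exon bases.

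*Igfbp3* (chr11:7206086-7213923, minus strand), whose product is the main IGF carrier of serum, rose at a lower level. It had 4.97, 4.32, 5.89 and 4.85 CPM with vehicle and 12.4, 14.9, 15.1 and 14.8 CPM with TGF-β1. Culture 5 was the lowest of the TGF-β1 group and still above every vehicle culture. It rose 2.85-fold, a log2 fold change of 1.51 (standard error 0.08).

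*Igfbp4* (chr11:99041244-99054392, plus strand), whose product holds IGFs until the protease pappalysin cuts it, rose from an already high level. It had 89.3, 87.8, 87.02 and 88.4 CPM with vehicle, and 152.5, 154.9, 152.3 and 149.04 CPM with TGF-β1. Neither group spanned more than 6 CPM, and they lay over 50 CPM apart. This 1.73-fold rise was a log2 fold change of 0.79 (standard error 0.03).

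Members of the family lie in neighbouring pairs in the genome. *Igfbp2* and *Igfbp5* lie on chromosome 1 with their ends facing each other and 5457 bases between them, and both fell, with log2 fold changes of -1.97 and -3.98. *Igfbp1* and *Igfbp3* lie on chromosome 11 in the same arrangement with 3539 bases between them, and *Igfbp1* had no count in any library while *Igfbp3* rose.

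The summed mRNA of the 6 binding proteins rose while its composition turned over. The sum was 372.2, 377.1, 364.6 and 371.2 CPM with vehicle and 535.5, 552.9, 524.1 and 513.4 CPM with TGF-β1, a ratio of means of 1.43. The rising genes added 272.8 CPM, of which 199 came from *Igfbp7*, 64.1 from *Igfbp4* and 9.28 from *Igfbp3*. The falling genes changed the sum by -112.6 CPM, of which -64.2 came from *Igfbp5*, -46.8 from *Igfbp6* and -1.59 from *Igfbp2*, leaving a net gain of 160.2 CPM.

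Within that sum, *Igfbp6* was the largest part with vehicle, at 40.6 ± 1.11% (SD, n = 4), and *Igfbp7* with TGF-β1, at 48.2 ± 0.544%. The share of *Igfbp7* had been 14.8, 15.1, 15.7 and 15.4% in the vehicle cultures and became 47.8, 49.0, 47.8 and 48.1% in the TGF-β1 cultures. The share of *Igfbp5* went the other way, from 20.2, 19.4, 17.2 and 17.0% to 1.08, 0.697, 0.779 and 0.721%. *Igfbp6* took 39.2, 40.5, 41.05 and 41.8% with vehicle and 20.2, 19.5, 19.3 and 19.2% with TGF-β1. In each of these 3 genes the groups were far apart, and cultures of the same group differed by at most a few percentage points.

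The remaining genes moved less as shares. *Igfbp4* went from 23.7 ± 0.316% to 28.6 ± 0.498%, a smaller step than its 1.73-fold rise in level, since the sum rose too. *Igfbp3* took 1.35 ± 0.195% with vehicle and 2.69 ± 0.272% with TGF-β1. *Igfbp2* went from 0.574 ± 0.105% to 0.102 ± 0.0306%. For all 6 genes the shares of the groups did not overlap.

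**Figure D3:**
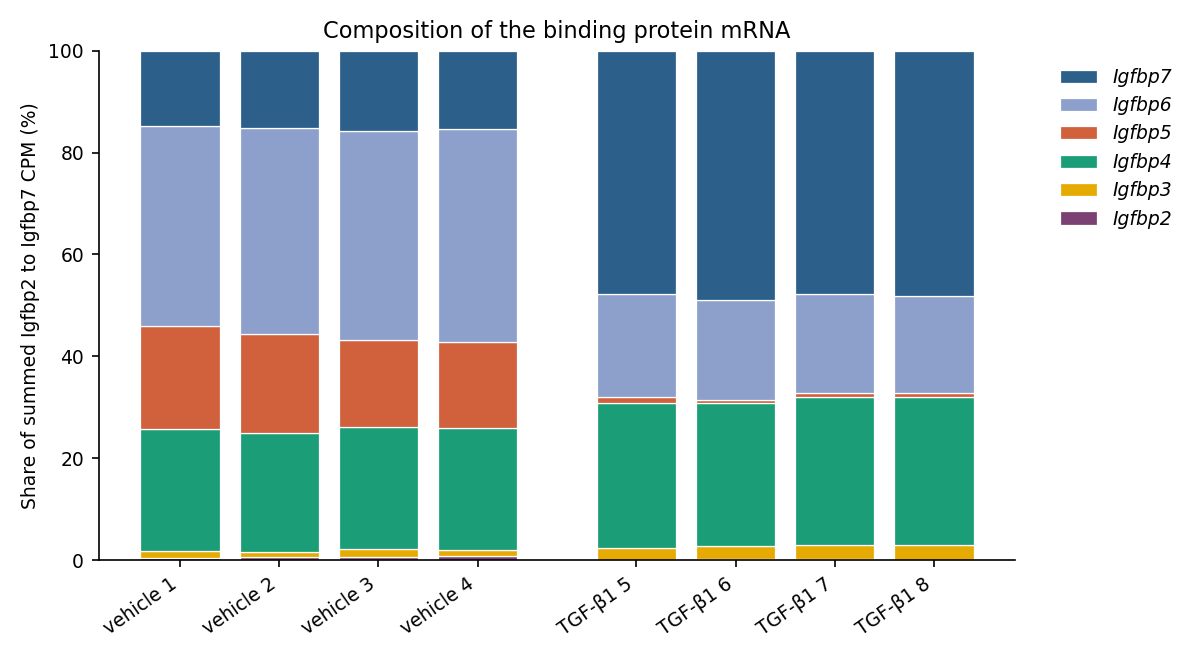
Share of each binding protein gene, in percent, in the summed CPM of *Igfbp2* to *Igfbp7* (vertical axis), with 1 stacked bar per culture, vehicle 1 to 4 on the left and TGF-β1 5 to 8 on the right. *Igfbp7* (dark blue) grows from 15.3% to 48.2% on average, *Igfbp5* (orange) shrinks from 18.5% to 0.818%, and the bars within a group look alike.

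Because longer transcripts give more reads, the shares and the parts of the sum above depend on length. Levels of all members were therefore also ranked as CPM per kb of annotated exon. On that scale *Igfbp6* lost more than *Igfbp5*, going from 135.6 to 93.6 against 11.4 to 0.724 CPM per kb. With vehicle the order by mean level was *Igfbp6* (135.6 CPM per kb), *Igf2r* (48.2), *Igfbp7* (46.8), *Igfbp4* (19.95), *Igf1r* (15.9) and *Igfbp5* (11.4), then *Igfbp3* (1.60), *Igfbp2* (1.153), *Igf2* (0.112) and *Igf1* (0.0474). The ranges over cultures of neighbours in this order overlapped only for *Igfbp3* and *Igfbp2*.

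With TGF-β1 the order was *Igfbp7* (212 CPM per kb), *Igfbp6* (93.6), *Igf2r* (46.5), *Igfbp4* (34.5), *Igf1r* (17.0), *Igfbp3* (4.57), *Igfbp5* (0.724), *Igf1* (0.321), *Igfbp2* (0.294) and *Igf2* (0.118). Here only the ranges of *Igf1* and *Igfbp2* overlapped. *Igfbp7* thus moved from behind *Igf2r* to the top, *Igfbp3* passed *Igfbp5*, and *Igf1* moved from the last place to above *Igf2*. The handling of reads shared by genes is not known. If all of them had been left out, the *Igf2* counts would come from the 2029 exon bases that no other gene covers. Its level would then be 0.316 CPM per kb with vehicle and 0.334 with TGF-β1. That would place it beside *Igf1* and *Igfbp2* in the TGF-β1 cultures, and the mean of *Igf1* (0.321) would not be above it. Per length, the summed binding protein level was 217 ± 3.79 CPM per kb with vehicle and 345 ± 12.9 with TGF-β1, and *Igfbp6* took 62.6% of it with vehicle and *Igfbp7* 61.3% with TGF-β1.

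**Figure D4:**
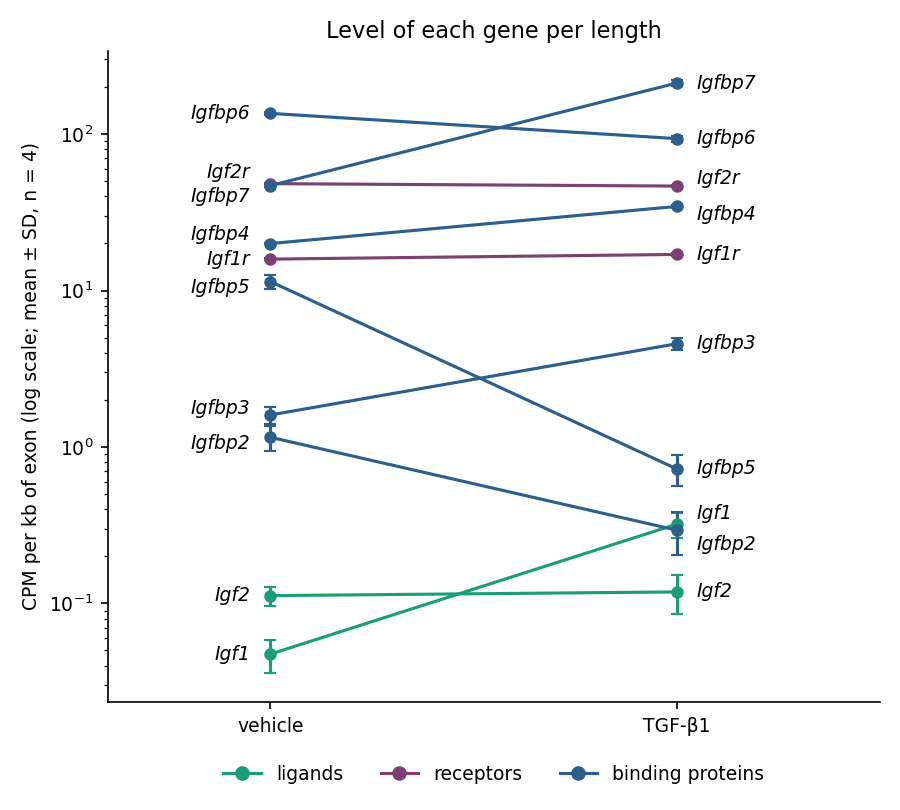
Mean level of each IGF axis gene in CPM per kb of exon (vertical axis, log scale; bars are SD, n = 4) with vehicle on the left and TGF-β1 on the right, coloured by role. *Igfbp7* climbs from 46.8 to 212 CPM per kb and crosses *Igfbp6*, *Igfbp5* drops from 11.4 to 0.724, and the lines of both receptors are nearly flat.

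Cultures of the same group were most alike for the abundant members. The coefficient of variation of CPM was 1.17% and 2.15% for *Igf1r* with vehicle and TGF-β1, 1.09% and 1.58% for *Igfbp4*, and 1.73% and 4.11% for *Igfbp7*. It was wider for the genes with few counts, at 23.8% and 18.3% for *Igf1* and 18.0% and 30.3% for *Igfbp2*. *Igfbp5* varied by 9.77% with vehicle, where replicates 1 and 2 were higher than 3 and 4, and by 21.9% with TGF-β1, where replicate 5 was the highest.

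The genes whose profile over the 8 cultures was most like that of *Igfbp5* were *Scara5*, *Ptgds* and *Enpep*. They were found among the 16494 genes with a mean of at least 1 CPM by the root mean square difference of log2 CPM, centred on each gene's mean, which was 0.208, 0.390 and 0.427. *Scara5*, a ferritin receptor gene, fell from 68.8 ± 2.25 to 5.53 ± 1.37 CPM (SD, n = 4), *Ptgds*, the prostaglandin D2 synthase gene, from 31.2 ± 3.26 to 3.30 ± 0.562 CPM, and *Enpep*, the gene of an angiotensin-cleaving aminopeptidase, from 1.88 ± 0.284 to 0.184 ± 0.0227 CPM. Nearest to *Igf1* were *Stra6* (0.191), a retinol transporter gene, *Tns4* (0.212), a tensin gene, and *Col7a1* (0.238), the gene of the anchoring fibril collagen. *Stra6* rose from 1.86 ± 0.343 to 12.4 ± 1.62 CPM, *Tns4* from 1.82 ± 0.147 to 10.6 ± 1.36 CPM and *Col7a1* from 19.5 ± 1.66 to 134 ± 16.2 CPM. With 2 groups, such likeness mostly reflects a log2 fold change of the same size.

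The other genes of the pathway were taken from lists of textbook members, with calls from the same edgeR test at an adjusted p under 0.05 over all genes tested, of which 20.9% were higher, 20.3% lower and 41.3% called in all. Of 10 genes for IGFBP proteases and their inhibitors, 9 were tested, of which 5 rose, 2 fell and 2 were not called, with a median log2 fold change of 0.14. The count of 5 was 4 with halved counts, with the filter of at least 10 counts in every culture, and without vehicle replicate 1 or 2 or TGF-β1 replicate 5 or 6. *Pappa*, the pappalysin that cuts IGFBP4, rose from 91.7 ± 3.08 to 132 ± 3.94 CPM, a log2 fold change of 0.52 (standard error 0.03). *Pappa2*, its relative that cuts IGFBP3 and IGFBP5, rose from 3.47 ± 0.357 to 6.94 ± 0.389 CPM, a log2 fold change of 1.00 (standard error 0.10). Both were higher in 4 of 4 TGF-β1 cultures.

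*C1s1*, a complement protease gene, rose by 0.46 on the log2 scale, while *Adam12* and *Adam9*, metalloproteinase genes with reported activity on binding proteins, had log2 fold changes of -0.18 and -0.16. Of the stanniocalcin genes, whose products inhibit pappalysin, *Stc1* was called higher at a very low level, from 0.205 ± 0.0616 to 0.514 ± 0.167 CPM (log2 fold change 1.32, standard error 0.37). It had 6 to 31 counts per library and passed the filter on low counts only through its TGF-β1 cultures, so this call supports nothing. With halved counts, or with the filter of at least 10 counts in every culture, *Stc1* was not tested. *Stc2* was not called, at 24.5 ± 0.671 and 24.8 ± 0.796 CPM.

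Of 13 other genes that encode an IGFBP-type domain, 11 were tested, of which 6 rose, 2 fell and 3 were not called. The matricellular genes *Ccn2* and *Ccn4* rose by 1.10 and 0.90 on the log2 scale and *Ccn5*, at a low level, by 1.31. *Ccn3*, a gene of the same family, fell from 95.7 to 49.4 CPM, a log2 fold change of -0.96 (standard error 0.03). *Htra4*, at 1.61 CPM with vehicle, had a log2 fold change of -0.48 (adjusted p = 0.0415, edgeR), and this call was lost with DESeq2 run with no filter before the model, when genes with any count at all were tested, and when vehicle replicate 1, 2 or 3 or TGF-β1 replicate 5 or 7 was left out.

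All 38 genes of receptor signalling to PI3K, mTOR and MAPK were tested, and 18 rose, 8 fell and 12 were not called, against 20.9% higher and 20.3% lower over all genes tested, with a median log2 fold change of 0.04. *Rictor*, a subunit of mTOR complex 2, rose by 0.80 on the log2 scale from 223 to 387 CPM. *Irs2*, the adaptor of the insulin and IGF1 receptors, rose by 0.76 from 67.1 to 114 CPM, and the kinase gene *Map2k1* by 0.40. *Mapk3*, *Akt2* and the receptor-binding adaptor gene *Grb10* had log2 fold changes of -0.48, -0.33 and -0.33.

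Of 16 FOXO factors and targets, 4 rose, 10 fell and 2 were not called, where 20.9% of all genes tested rose and 20.3% fell. The targets are known to be held down when PI3K and AKT signal. Whether that signalling differed between the groups was not tested. The median log2 fold change of the 16 genes was -0.25 against -0.01 over all genes tested. *Klf15* fell by 0.72, *Sesn1* by 0.69 and *Txnip*, which restrains glucose uptake, by 0.60 on the log2 scale. *Irs2*, which is on this list too, *Ccng2* and *Bcl6* rose by 0.76, 0.39 and 0.15.

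Of the 3 IGF2 mRNA-binding protein genes, *Igf2bp1* and *Igf2bp2* rose by 0.28 and 0.21 on the log2 scale and the other one was not called. Of 11 genes for partners that bind IGFBPs at the cell surface, in the matrix or in the nucleus, 9 were tested, of which 6 rose, 1 fell and 2 were not called. The integrin subunit gene *Itgb3* rose from 3.59 ± 0.157 to 13.3 ± 1.65 CPM, a log2 fold change of 1.89 (standard error 0.09). *Fn1*, the fibronectin gene, rose by 0.49 on the log2 scale and *Itgb1* by 0.44, while *Rxra*, a nuclear receptor gene, fell by 0.45. Among 6 related ligand, receptor and carrier genes only *Igfals*, at 0.782 ± 0.0892 and 0.606 ± 0.219 CPM and not called, and *Insr* were tested, and *Ins1* was at 0 counts in every library.

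**Figure D5:**
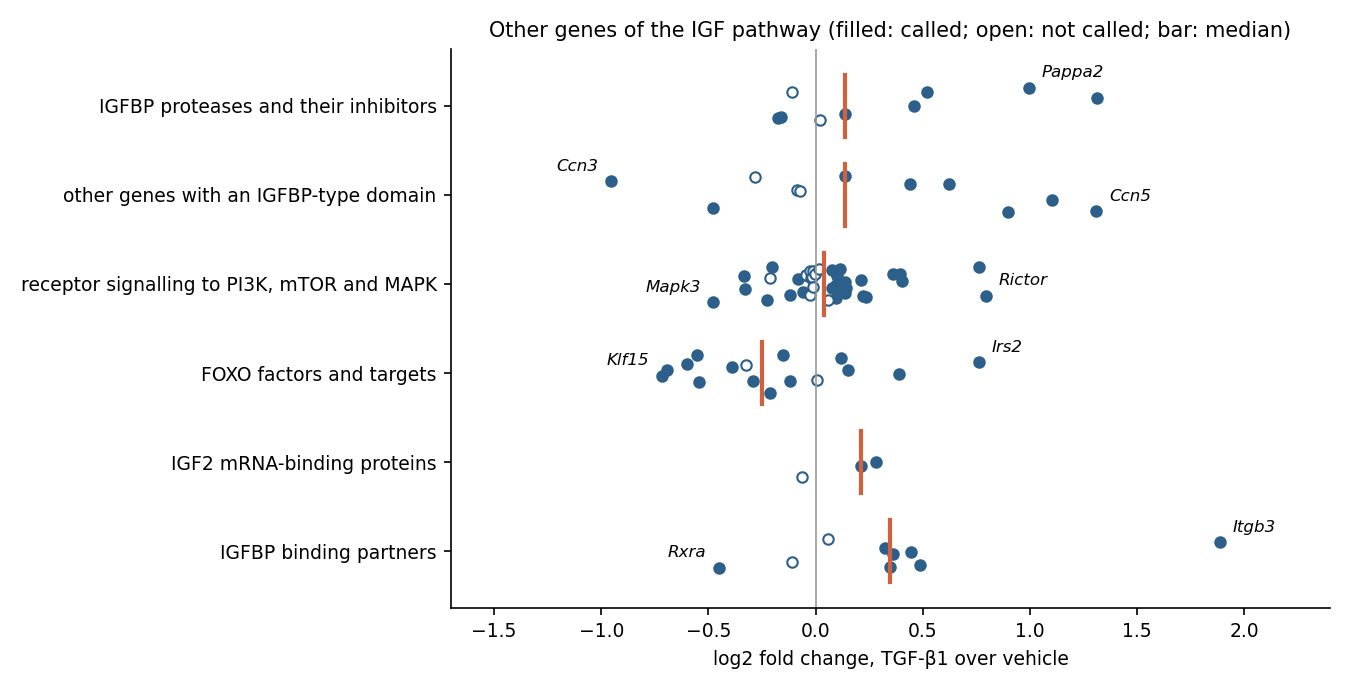
Log2 fold change, TGF-β1 over vehicle (horizontal axis), of each tested gene of 6 pathway lists (rows), with filled points for called genes, open points for genes not called and an orange bar at the median of each list. Medians run from -0.25 for the FOXO list to 0.35 for the binding partners, where *Itgb3* stands out at 1.89.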

How the data were processed

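The data were bulk RNA-seq from 8 mouse brain pericyte cultures, 4 per group. The authors deposited raw counts of reads per gene, 1 table per culture and without normalization. According to the study's methods and the submitters' processing notes, reads were aligned to mm10 with STAR 2.7.5c, PCR duplicates were removed with SAMtools 1.15 and genes were counted with featureCounts 2.0.3, after which the authors ran DESeq2. The annotation release, the strand setting and the handling of reads shared by genes are not given in the sources used here, so overlapping genes may share or lose reads. The library kit named in the labels keeps strand.

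Of 54532 gene identifiers, 54409 had a symbol and 54495 a position in the GENCODE M21 annotation of GRCm38. Counts were tested with edgeR 4.0.16 in R 4.3.3 (filterByExpr, TMM factors, robust quasi-likelihood test, Benjamini-Hochberg adjustment over 22544 genes). The standard error was the log2 fold change divided by the square root of its F statistic. Shares and levels per kb were computed from TMM-scaled CPM. The members and the gene lists were chosen with earlier results of these data known. Named genes were all members, *Igfbp1* and *Insr*, and from each list the called genes of at least 1 CPM on average, up to 3 with the largest rise and 3 with the largest fall. A gene that falls under this rule is not reported here. The 3 profiles nearest to the member with the largest rise and fall were also named. *Stc1*, *Stc2*, *Gm49394*, *Polr2b*, *Igfals*, *Ins1*, *Notch3*, *Cdh5*, *Kdr*, *Pecam1*, *Pdgfra* and markers at or near 0 were named after their values were seen.

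Pairs of libraries of the same group differed by a chi-square of 2.25 to 3.93 per degree of freedom over genes. Sampling noise gives 1 if each fragment was counted once. Low counts (up to 20) were even in 68.5 to 70.2% of cases. With counts halved, as if both mates of a pair had been counted, the chi-square was 1.12 to 1.96. The lowest value, for vehicle replicates 3 and 4, is close to sampling noise, so the chi-square cannot show that the cultures were independent. The libraries were treated as separate cultures, as labelled. The floor of 3 counts covers counting error only. The p-values set the difference between the groups against the spread between cultures of a group, without pairing. On simulated data for this comparison, with 22544 genes of which 200 were changed, 162 (81%) were called and 5.26% of calls were false. Far fewer genes were changed there than the 41.3% called in the data, so these rates may not hold for the data. Alternatives were DESeq2 1.42.0 with no filter before the model, 3 other scalings, 2 other count filters, halved counts and each culture left out. Shares and sums were also computed per kb and with *Igfbp1* added, which had no count in any library and so changed nothing.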

Additional observations from a re-analysis of the deposited data

Results flagged for a closer look

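The 36 groups of 4 values held the members' levels, the binding protein shares and their summed CPM, and the library totals. In 2 groups 1 sample stood far from the other 3, and chance at 1 in 20 would give 1.8. *Igfbp7* was at 55.2 CPM in vehicle replicate 1, where the nearest of the other vehicle cultures had 56.9 CPM, a gap of 0.864 of the range of the group. That range is narrow beside the level with TGF-β1, whose lowest culture had 246.8 CPM. *Igfbp3* was at 12.4 CPM in TGF-β1 replicate 5, where the nearest of the other TGF-β1 cultures had 14.8 CPM, a gap of 0.879 of the range. The same culture was also the highest of its group for *Igfbp5*, at 5.76 CPM.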

How the results depend on the processing

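No paired analysis was possible because the vehicle and TGF-β1 cultures share no replicate numbers. Of 495 values recomputed under alternatives, 470 were marked as kept. Among them were 150 log2 fold changes of members, of which 144 kept their direction and side of the threshold. Shares and sums were marked as kept when they moved by no more than the SD between cultures. Counts of genes were marked as kept within a fixed ratio of the main count, so a kept count could still differ. The calls of 8 members held under all 15 alternatives. The sign of *Igf2* turned without vehicle replicate 4 (-0.01) and without TGF-β1 replicate 6 (-0.14), within a range of -0.14 to 0.16 over the left-out cultures. *Igf2r* became called with DESeq2 (-0.045), library totals alone (-0.062) or upper-quartile factors (-0.057) in edgeR, and without TGF-β1 replicate 7, with log2 fold changes of -0.062 to -0.037 over the left-out cultures. The cause was not tested. The count of other IGFBP-domain genes that fell was 1 with DESeq2, which was run with no filter before the model, and also 1 in edgeR when genes with any count at all were tested, and 1 to 3 over the left-out cultures. The number of all genes called ran from 8559 (without TGF-β1 replicate 6) to 9311 against 9304. Per kb of exon, the shares with vehicle and TGF-β1 were 0.740% and 1.32% for *Igfbp3*, 9.22% and 9.98% for *Igfbp4*, 5.27% and 0.210% for *Igfbp5*, 62.6% and 27.1% for *Igfbp6* and 21.6% and 61.3% for *Igfbp7*, and the sums were 217 and 345, because the transcripts differ in length. Depth limits *Igf1*, *Igf2* and *Igfbp2*, which had as few as 18 counts in a library.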
